A study of Mus musculus with 12 samples.

Results

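Whole-tissue RNA of the terminal ileum, the last segment of the small intestine, was compared between conventional and germ-free mice that had received no tylosin, a macrolide antibiotic. All genes with a value on an immunology probe panel were followed, so that the 556 genes measured were members and none was chosen by its level. The groups compared held 6 of the 12 mice of the series, 3 SPF control and 3 GF control mice, and the other 6 were tylosin-exposed (PAT) mice. All were male C57BL/6 mice killed at week 7, and chow and light cycle were shared. SPF (specific pathogen-free) control mice came from litters bred from purchased breeders and carried a conventional gut community. GF (germ-free) control mice were bred and kept without microbes at the study's own institution. Both control groups drank autoclaved water without tylosin, whereas the PAT mice of both housing types had been exposed to tylosin early in life. Breeding colony and housing therefore differ together with colonization, and these cannot be told apart here. Litter, cage, cartridge and assay batch of the mice were not given, so that p-values measure the spread among these mice.

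The ileal mucosa holds epithelium, intraepithelial lymphocytes, plasma cells that secrete IgA, myeloid cells and, in places, B cell follicles. Microbial products are sensed by pattern receptors, which signal through NF-kB and MAP kinases. Interleukin 17 and interleukin 22 act on the epithelium to raise antimicrobial products, and interferon-gamma raises MHC (major histocompatibility complex) class II molecules, the immunoproteasome and T cell attracting chemokines. Colonized and germ-free mice are a standard pair of models for asking which of these systems depend on microbes.

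Each value below is a level, the log2 of a normalized count of hybridized reporter probes (NanoString nCounter), and each difference is the mean of SPF control minus the mean of GF control in log2 units, given with its standard error (SE, or the value after ±). Levels are listed for SPF control mice 2, 7 and 8 and then for GF control mice 37, 38 and 39. Probes differ in their yield, so levels were compared between mice and not between genes. Total counts, recovered from the normalized values, were 806043 to 923395 counts in SPF control mice and 626329 to 681370 in GF control mice, which did not overlap, and the part of this gap in the results was not tested. Among the SPF control mice, mouse 8 stood apart from the others, with a correlation over genes of 0.949 to each of them, against 0.986 between mice 2 and 7. A mouse named as left out below was removed from the fit. The adjusted p is from limma's test over all 556 genes with Benjamini-Hochberg adjustment, and a gene was called past the threshold below 0.05.

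Of the 556 genes, 234 (42.1%) were called, 108 (19.4%) higher and 126 (22.7%) lower in SPF control mice. Values of the 3 SPF and the 3 GF control mice did not overlap for 290 genes (52.2%). As deposited, the rises were larger than the falls, with a median of 1.30 over the called higher genes and of -0.77 over the called lower genes. In the same scaling a difference of at least 1 log2 unit was found for 72 of the genes called higher and 27 of those called lower. Centring each mouse on its median lowered every difference, with Cd74 going from 2.21 to 1.77 and Abcb1a from -2.82 to -3.26. Which direction holds the larger changes is therefore relative to the scaling. Of 6 fits that each lacked 1 control mouse, every one kept 161 of the 234 calls in every fit, 68 higher and 93 lower.

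Rises and falls lay at different abundances, as the plot of difference by abundance shows. Among the 62 genes with a mean normalized count of at least 2000, 7 were called higher and 36 lower, with a median difference of -0.55. Among the 188 genes between 20 and 200, 52 were called higher and 22 lower, with a median of 0.52. The balance between the directions depended on the scaling. The median difference of all genes was 0.08 as deposited, -0.36 with each mouse centred on its median and -0.14 after quantile normalization. The called genes were then 57 higher and 169 lower with centring, and 72 higher and 137 lower with quantile normalization. Scaling each mouse to its total count gave 98 higher and 154 lower, with a median of 0.076. Small differences are therefore relative to the scaling, and a change of sign under it is given beside the family it touches.

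**Figure D1:**
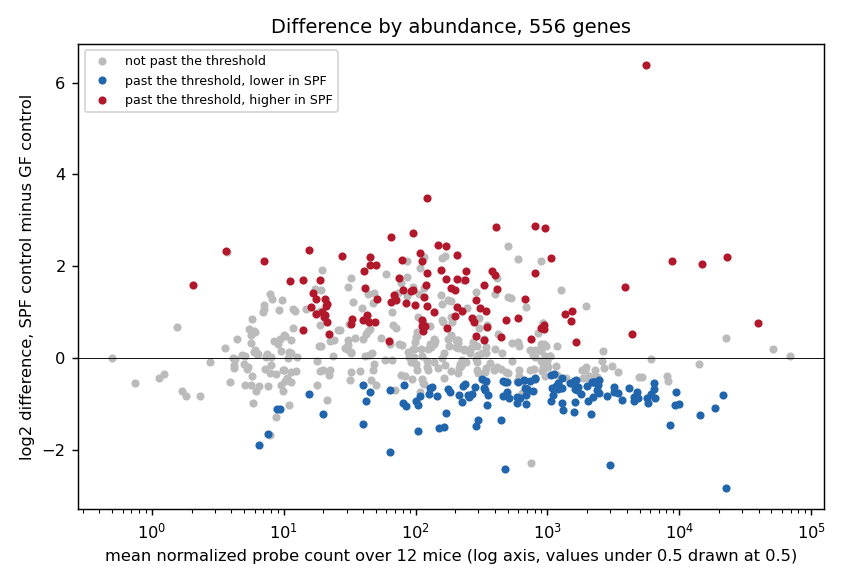
Log2 difference of SPF control minus GF control (vertical axis) against the mean normalized probe count over 12 mice (horizontal log axis), 1 point per gene. The 108 genes called higher (red) lie mostly at middle counts, and 36 of the 126 genes called lower (blue) have a mean count of at least 2000.

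**Figure D2:**
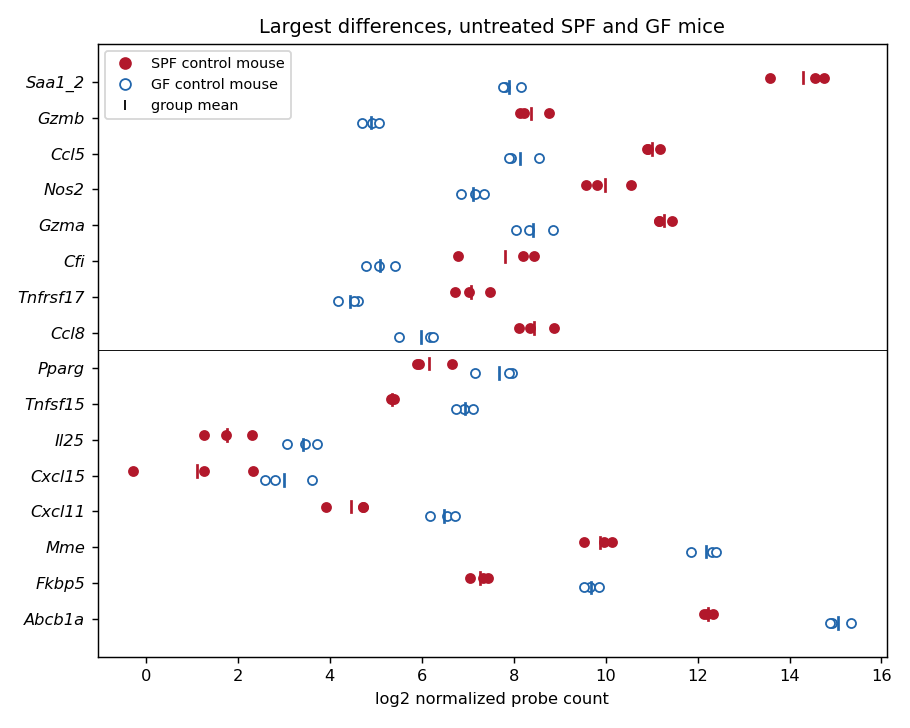
Log2 normalized probe count (horizontal axis) in each SPF control mouse (filled) and GF control mouse (open) for the called genes without overlap that moved most, 8 upwards and 8 downwards, with the group means as bars. For each of the 16 genes the 3 filled and the 3 open points stand apart, from Saa1_2 at 6.38 down to Abcb1a at -2.82.

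Genes of the acute phase and of granular lymphocytes led the rises. The probe Saa1_2 reads serum amyloid A1 and A2, acute phase proteins that the ileal epithelium makes on contact with adherent bacteria. Its level was 14.54, 13.57 and 14.75 in the SPF control mice and 8.15, 7.81 and 7.77 in the GF control mice, a difference of 6.38 (SE 0.51, adjusted p = 3.73e-05), or 83.2-fold. The lowest SPF control mouse lay over 5 log2 units above the highest GF control mouse. Gzmb, a serine protease of cytotoxic granules, had levels of 8.22, 8.15 and 8.78 against 4.93, 5.08 and 4.70, a difference of 3.48 (SE 0.25, adjusted p = 1.64e-05, 11.2-fold). Gzma, another granule protease, had levels of 11.17, 11.17 and 11.44 against 8.87, 8.34 and 8.05, a difference of 2.84 (SE 0.36, adjusted p = 0.000336). Granzymes are similar in sequence, and whether a probe reads more than one of them was not tested. Ccl5, a chemokine stored by memory and intraepithelial T cells, had 10.89, 11.19 and 10.93 against 8.56, 7.94 and 7.90, a difference of 2.87 (adjusted p = 0.000156).

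Nos2, the inducible nitric oxide synthase, had levels of 9.58, 9.80 and 10.56 in SPF and 7.16, 7.37 and 6.85 in GF control mice, a difference of 2.85 (SE 0.33, adjusted p = 0.000277). Cfi, the protease that cleaves C3b and C4b, differed by 2.72 (adjusted p = 0.00165), with SPF control mouse 7 (8.20, 6.80 and 8.45 in mice 2, 7 and 8) lower than the other 2 and still above all GF control mice (5.42, 4.79 and 5.08). Tnfrsf17 encodes BCMA, the survival receptor of plasma cells. Its levels were 7.03, 6.73 and 7.48 against 4.61, 4.18 and 4.52, a difference of 2.65 (SE 0.33, adjusted p = 0.000336). Ccl8, a chemokine of tissue macrophages, had 8.36, 8.12 and 8.87 against 6.17, 5.52 and 6.24, a difference of 2.47 (adjusted p = 0.000204).

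The largest falls were those of Abcb1a, Fkbp5 and Mme. Abcb1a, the P-glycoprotein efflux pump of the brush border, had levels of 12.20, 12.15 and 12.34 in SPF and 14.92, 15.34 and 14.88 in GF control mice, a difference of -2.82 (SE 0.19, adjusted p = 1.64e-05), or 7.05-fold lower in SPF. Fkbp5, a co-chaperone that glucocorticoids induce, had 7.06, 7.33 and 7.44 against 9.65, 9.86 and 9.53, a difference of -2.40 (SE 0.15, adjusted p = 1.64e-05). Mme, the peptidase neprilysin, had 9.53, 9.97 and 10.15 against 12.31, 12.40 and 11.86, a difference of -2.31 (SE 0.21, adjusted p = 7.08e-05). All 3 SPF control mice lay more than 1.5 log2 units below all 3 GF control mice for each of these genes.

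Cxcl11, a gene of the CXCR3 ligand group, differed by -2.03 (SE 0.29, adjusted p = 0.000737), with 3.92, 4.72 and 4.73 in SPF and 6.17, 6.55 and 6.72 in GF control mice. Whether these mice make the Cxcl11 protein was not tested. Tnfsf15, the cytokine TL1A, had nearly equal levels in the SPF control mice, 5.33, 5.35 and 5.41, against 6.93, 6.74 and 7.13 in GF control mice, a difference of -1.57 (adjusted p = 0.000295). Pparg, a nuclear receptor for fatty acids, had 5.90, 5.95 and 6.65 against 7.15, 7.98 and 7.91, a difference of -1.51 (adjusted p = 0.00495). The other 2 of the 8 rested on few counts. Il25, a cytokine of tuft cells, had 3 to 6 counts in SPF and 7 to 13 in GF control mice, a difference of -1.64 (adjusted p = 0.0124). Cxcl15, a lung-type chemokine, had 1 to 6 counts against 5 to 12, a difference of -1.89 (adjusted p = 0.019), and it was not called when 1 mouse was left out (adjusted p = 0.0587 without mouse 37).

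**Figure D3:**
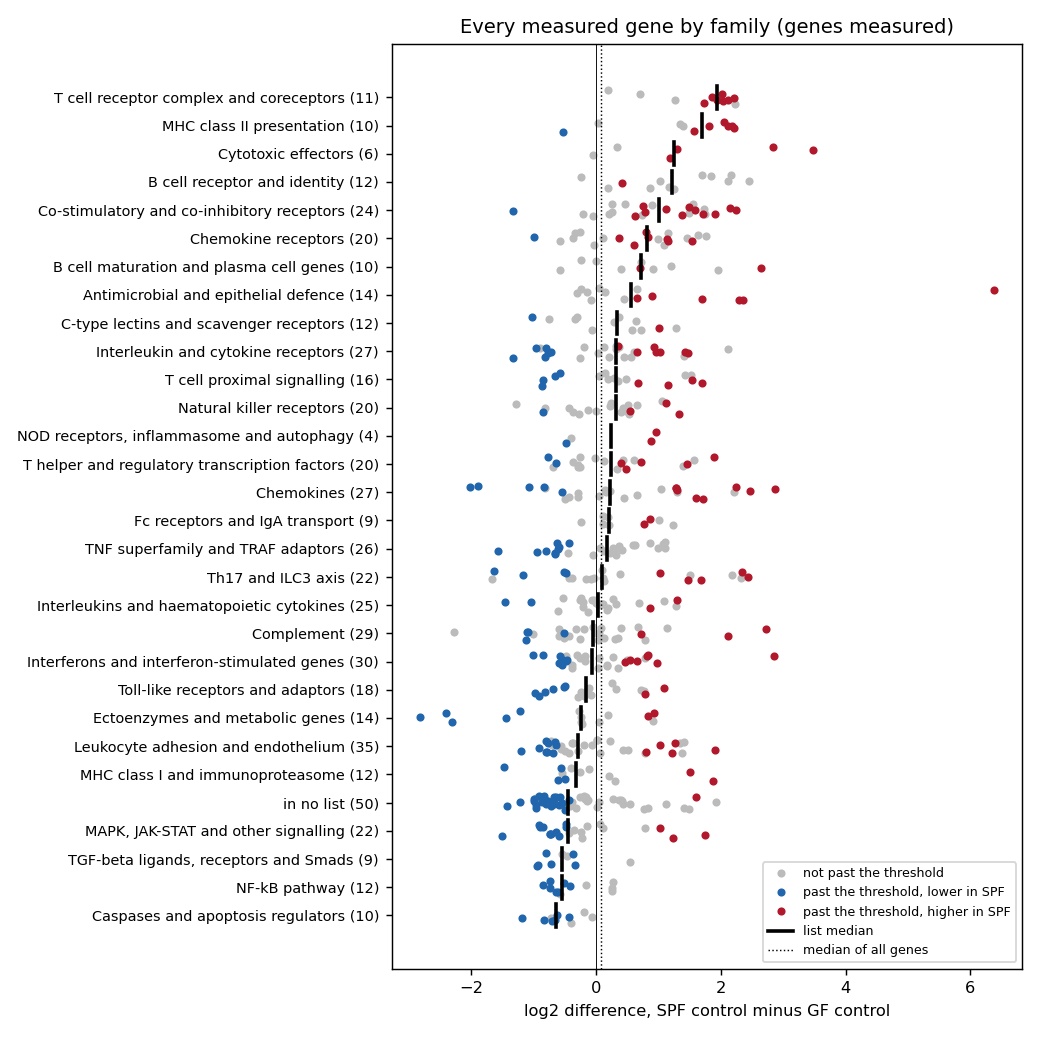
Log2 difference of SPF control minus GF control (horizontal axis) for each of the 556 genes, by gene family with the number measured, with genes called higher in red and lower in blue. Black bars are family medians, from 1.93 for the T cell receptor complex to -0.65 for caspases and apoptosis regulators, and the dotted line is the median of all genes, 0.08.

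Of the 14 antimicrobial and epithelial defence genes, 6 were higher and 0 lower in SPF control mice, with a list median of 0.55. The share called was 42.9%, beside 42.1% of all genes. The split was 3 higher and 0 lower with centring and 4 higher and 0 lower after quantile normalization. Beside Saa1_2, Saa3, a further serum amyloid, had levels of 8.05, 7.43 and 8.01 against 5.80, 5.55 and 5.24, a difference of 2.29 (SE 0.36, adjusted p = 0.00102). S100a9, a subunit of the metal-binding protein calprotectin of neutrophils, differed by 2.36 (adjusted p = 0.00212) with 5.77, 4.54 and 4.86 in SPF and 2.83, 3.27 and 2.0 in GF control mice. Its partner S100a8 was called at 1.70, and its adjusted p was 0.0722 to 0.0917 without mouse 2 or 37, and 0.108 with centring and 0.131 after quantile normalization. The summed normalized count of 5 neutrophil markers was 414 to 673 in SPF control and 189 to 275 in GF control mice, and S100a8 and S100a9 are 2 of these 5. Pla2g2a, a gene of the phospholipase A2 family, differed by 0.65 ± 0.18 (adjusted p = 0.0146), and it was not called with each mouse centred on its median (0.573). Only RNA was measured, so whether these mice make the Pla2g2a enzyme was not tested. Defb1, a constitutive beta-defensin, was called at 0.90 (adjusted p = 0.0326), but the adjusted p was 0.0819 to 0.122 without mouse 2, 8, 37 or 38, and 0.369 with centring and 0.537 after quantile normalization. Itln1, the abundant lectin intelectin of goblet and Paneth cells, overlapped between the groups with 16.17, 15.90 and 15.84 against 15.79, 15.95 and 16.02, and its difference was 0.05 ± 0.18 (adjusted p = 0.843). Camp, Ltf, Hamp and Defb14 had low counts and adjusted p of 0.607 to 0.917.

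In bulk tissue, fewer cells of a type and less RNA per cell cannot be told apart, and this holds for every cell type gene below. Of the 10 MHC class II presentation genes, 6 were higher and 1 was lower in SPF control mice (70% called, beside 42.1% of all genes). The list median was 1.69. The chains that form the peptide-binding molecule rose together. H2-Aa, the alpha chain of I-A, had levels of 14.74, 15.04 and 15.04 against 13.28, 12.52 and 12.87, a difference of 2.05 (SE 0.27, adjusted p = 0.000404, 4.14-fold). H2-Ab1, its beta chain, had 14.00, 14.29 and 14.25 against 12.44, 11.69 and 12.05, a difference of 2.12 (adjusted p = 0.000603). Cd74, the invariant chain that guards the groove, had 15.53, 15.67 and 15.68 against 13.85, 13.001 and 13.40, a difference of 2.21 (adjusted p = 0.000791). H2-DMa, which exchanges peptides, differed by 2.19 (adjusted p = 0.000944), and H2-Eb1, the beta chain of I-E, by 1.56 (adjusted p = 0.0017). H2-Ea-ps, the I-E alpha pseudogene of this strain, had a difference of 0.03 (adjusted p = 0.943). Ctss, the protease that trims the invariant chain, ran the other way, with 12.20, 12.24 and 12.44 against 12.84, 12.97 and 12.69 and a difference of -0.54 (adjusted p = 0.00887, and 0.405 after quantile normalization).

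The class II genes did not all share 1 pattern over the mice. H2-Aa, H2-Ab1, Cd74 and H2-DMa were as high in SPF control mouse 8 as in mice 2 and 7. H2-DMb2 and H2-Ob, a DM chain and a chain of the DM inhibitor made mainly by B cells, were low in mouse 8. H2-Ob had levels of 9.42, 9.80 and 6.0 in SPF and 9.08, 6.48 and 5.49 in GF control mice, and H2-DMb2 had 9.79, 10.07 and 6.88 and 9.27, 6.88 and 6.57, and neither was called (adjusted p = 0.413 and 0.379). Ciita, the master regulator of class II transcription, lay between, with 9.63, 9.84 and 8.95 against 8.66, 7.27 and 7.03, a difference of 1.82 (SE 0.60, adjusted p = 0.0343). Its adjusted p was 0.0934 to 0.116 without mouse 2, 7, 38 or 39.

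**Figure D4:**
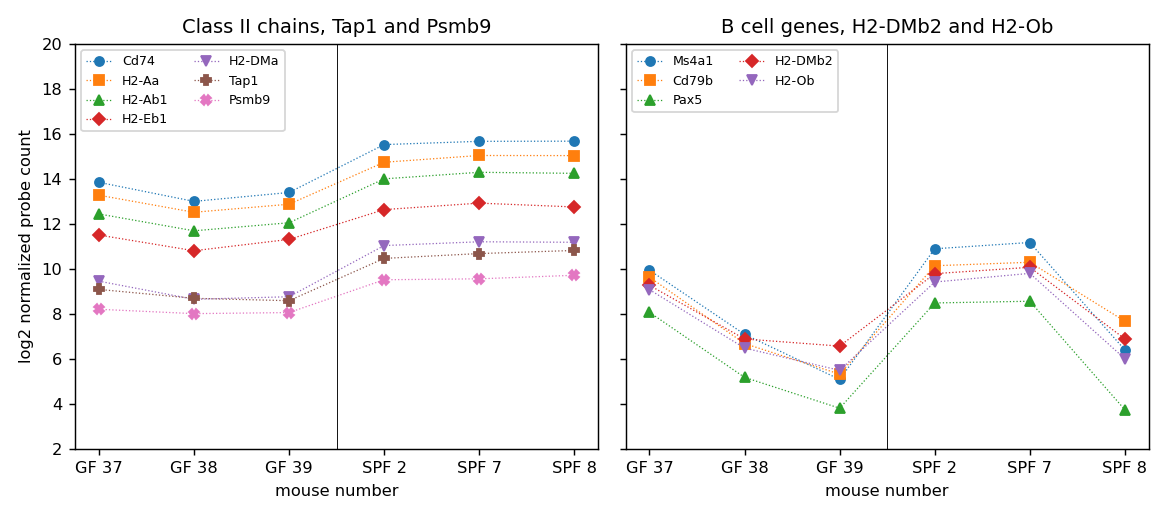
Log2 normalized probe count (vertical axis) in each GF and SPF control mouse (horizontal axis, mouse numbers) for class II chains, Tap1 and Psmb9 (left) and for B cell genes with H2-DMb2 and H2-Ob (right). On the left all 3 SPF control mice lie above all 3 GF control mice, whereas on the right SPF control mouse 8 lies among the low mice and GF control mouse 37 near the high ones.

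Promoter windows show which class II genes share a known sequence element, and those of 2 called genes are printed for it. The sequences are from RefSeq on GRCm38.p6, from 250 bases before to 50 after each annotated start, and 411 of the panel's genes matched 499 windows of the 32851 given. The motifs searched on both strands were the class II Y box (GATTGG, bound by NF-Y), the interferon-stimulated response element (GAAA, any 2 bases, GAAA), the gamma-activated site (TTCNNNGAA) and an NF-kB site (GGG, any 2 bases, TTTCC). The Y box was in 5 of the 7 windows of class II presentation genes (71.4%), which cover 6 genes, and in 16.1% of all windows. It was also in 5 of the 12 windows of class I and immunoproteasome genes (41.7%). The window of Fkbp5, among the largest falls, held 2 matches. H2-DMa had a match in 1 window and none in its other. Capitals mark the Y box. In H2-Aa it ends 44 bases before the start, and H2-Eb1 has a match on each strand.
H2-Aa (chr17:34287774-34288073, minus strand): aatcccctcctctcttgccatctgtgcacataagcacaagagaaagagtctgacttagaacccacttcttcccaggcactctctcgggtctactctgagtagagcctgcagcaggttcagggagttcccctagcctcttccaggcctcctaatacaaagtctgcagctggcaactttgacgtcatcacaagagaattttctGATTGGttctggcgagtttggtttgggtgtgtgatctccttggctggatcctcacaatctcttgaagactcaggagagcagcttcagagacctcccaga
H2-Eb1 (chr17:34305617-34305916, plus strand): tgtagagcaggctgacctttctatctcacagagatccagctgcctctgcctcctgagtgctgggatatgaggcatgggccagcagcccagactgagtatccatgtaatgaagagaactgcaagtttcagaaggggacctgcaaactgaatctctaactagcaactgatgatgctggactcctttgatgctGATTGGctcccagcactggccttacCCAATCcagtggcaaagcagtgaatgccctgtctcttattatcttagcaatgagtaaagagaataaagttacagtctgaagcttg
These matches are a description of the letters and not of bound sites. H2-Ab1, Cd74 and Ciita had no window among those given.

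Peptide loading for class I split by member. Of 12 class I and immunoproteasome genes, 2 were higher and 4 lower (50% called, beside 42.1% of all genes), with a median of -0.33. Tap1, the peptide transporter into the endoplasmic reticulum, had levels of 10.47, 10.68 and 10.82 against 9.09, 8.69 and 8.58, a difference of 1.87 (SE 0.20, adjusted p = 0.000166). Psmb9, an interferon-induced subunit of the immunoproteasome, had 9.52, 9.56 and 9.71 against 8.20, 8.01 and 8.06, a difference of 1.51 (SE 0.16, adjusted p = 0.00016). The class I heavy chain H2-K1 had 13.45, 13.74 and 14.03 against 13.83, 14.04 and 13.69, which overlapped (difference -0.12 ± 0.17, adjusted p = 0.585), and B2m, the shared light chain, had a difference of 0.20 (adjusted p = 0.183). Constitutive proteasome subunits ran lower, with -0.61 (adjusted p = 0.0085) for Psmc2, a regulatory ATPase. H2-Q10, a secreted class I chain, had a larger fall, at -1.48 (adjusted p = 0.00281), and its probe may read related Q genes, which was not tested. Tap1 and Psmb9 are neighbours that start in opposite directions, and their windows share 275 bases. The window of Tap1 is printed for this reason, with its Y box match in capitals.
Tap1 (chr17:34187306-34187605, plus strand): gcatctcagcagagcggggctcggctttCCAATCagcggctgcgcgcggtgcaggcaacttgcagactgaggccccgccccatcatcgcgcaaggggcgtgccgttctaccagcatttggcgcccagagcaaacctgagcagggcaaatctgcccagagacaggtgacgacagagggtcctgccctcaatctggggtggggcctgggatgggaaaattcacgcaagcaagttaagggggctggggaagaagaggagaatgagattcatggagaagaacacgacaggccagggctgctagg
No window of Tap1 given here held the interferon or gamma-activated motif.

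Interferon signalling genes were divided by role. Of 30 genes, 7 were higher and 8 lower (50% called, beside 42.1% of all genes). The median was -0.07, beside 0.08 for all genes. The balance depended on the scaling, with 1 higher and 12 lower with centring and 5 higher and 9 lower after quantile normalization and a median of -0.51 with centring. All 3 called among the 9 interferons and receptors were lower, while the 21 stimulated genes and regulators gave 7 higher and 5 lower. Both chains of the interferon-gamma receptor were lower. Ifngr1 had levels of 12.34, 12.41 and 12.76 against 13.40, 13.74 and 13.39, a difference of -1.01 (SE 0.16, adjusted p = 0.000992), and Ifngr2 differed by -0.85 (adjusted p = 0.00118). The ligand Ifng had 7 to 11 counts in SPF and 6 to 7 in GF control mice, with 2.55, 2.85 and 3.19 against 2.61, 3.08 and 2.80 on the log2 scale and a difference of 0.04 ± 0.46 (adjusted p = 0.949). Among the regulators, Irgm1, a GTPase of cell-autonomous defence, had 10.92, 11.11 and 11.36 against 10.25, 10.28 and 10.42, a difference of 0.81 (adjusted p = 0.00171). Irf8, a factor of myeloid and B cells, differed by 0.65 (adjusted p = 0.000932) and Irf1, a factor that interferon-gamma induces, by 0.54 (adjusted p = 0.00887). With each mouse centred on its median these 3 rises were not called (adjusted p = 0.22, 0.444 and 0.761 in that order), whereas after quantile normalization they were. Pml, a nuclear body protein, fell by 0.53 (adjusted p = 0.00572). Mx1, a textbook type I interferon target, had 7.87, 8.0 and 8.15 against 8.31, 8.45 and 8.20 (difference -0.31 ± 0.14, adjusted p = 0.0877).

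Of the 27 promoter windows for the interferon list, 7 (25.9%) held the interferon-stimulated response element, against 3.44% of all windows, and 9 (33.3%) the gamma-activated site, against 8.3%. Over all panel genes the response element was in 10.9% of the windows of genes called higher, 6.72% of those called lower and 5.21% of the others. In the same order, the gamma-activated site was in 12%, 8.4% and 14.6%, and the NF-kB site in 2.17%, 4.2% and 8.68%. The Y box was in 21.7%, 16% and 11.8%. Windows of 3 called genes, textbook interferon targets, are shown because each holds an interferon or gamma-activated match. Capitals mark these matches and, in Cxcl10, a Y box match. The windows of Cxcl9 and Cd274, also called higher, held neither the interferon nor the gamma-activated motif. The other window of Irf1 held neither as well.
Cxcl10 (chr5:92348840-92349139, minus strand): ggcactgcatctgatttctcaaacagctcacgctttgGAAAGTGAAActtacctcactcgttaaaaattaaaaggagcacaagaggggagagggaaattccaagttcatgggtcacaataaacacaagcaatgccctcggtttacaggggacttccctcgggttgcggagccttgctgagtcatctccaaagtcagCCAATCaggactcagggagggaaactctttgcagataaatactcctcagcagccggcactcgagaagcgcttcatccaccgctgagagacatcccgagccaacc
Irf1 (chr11:53769764-53770063, plus strand): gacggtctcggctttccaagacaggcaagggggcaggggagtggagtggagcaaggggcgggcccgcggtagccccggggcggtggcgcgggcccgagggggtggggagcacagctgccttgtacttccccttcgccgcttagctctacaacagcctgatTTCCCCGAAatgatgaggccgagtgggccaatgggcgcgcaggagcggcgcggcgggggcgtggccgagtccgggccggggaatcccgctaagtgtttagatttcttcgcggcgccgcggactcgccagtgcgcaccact
Socs1 (chr16:10785487-10785786, minus strand): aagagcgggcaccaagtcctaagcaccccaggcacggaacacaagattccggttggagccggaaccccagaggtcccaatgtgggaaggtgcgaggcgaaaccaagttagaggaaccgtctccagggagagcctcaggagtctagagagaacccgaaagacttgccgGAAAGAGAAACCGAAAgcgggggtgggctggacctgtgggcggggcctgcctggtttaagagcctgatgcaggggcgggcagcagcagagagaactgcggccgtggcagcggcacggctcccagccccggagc
In Socs1 the capitals hold 2 overlapping response elements, and in Irf1 the gamma-activated site ends 82 bases before the start. Socs1, a feedback inhibitor of JAK kinases, had levels of 8.32, 8.24 and 8.66 against 7.18, 7.65 and 7.28, a difference of 1.03 (SE 0.20, adjusted p = 0.00326, and 0.108 with centring).

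T cell genes were higher as a group in SPF control mice. Of 11 genes of the T cell receptor complex and coreceptors, 7 were called higher and 0 lower (63.6% called, beside 42.1% of all genes). The list median was 1.93, and 5 of the 7 calls held in all 6 leave-out fits. Cd8a, the alpha chain of the CD8 coreceptor, had levels of 7.87, 8.01 and 7.87 against 6.35, 5.76 and 5.28, a difference of 2.12 (SE 0.34, adjusted p = 0.00116). Cd3e, an invariant chain of the receptor, had 7.92, 8.12 and 7.48 against 6.65, 5.59 and 5.70, a difference of 1.86 (adjusted p = 0.00595). Cd247, the zeta chain, differed by 2.03 (adjusted p = 0.00505), and Cd7, an early T cell and intraepithelial marker, by 1.72 (adjusted p = 0.000336). Cd4 had 7.48, 7.59 and 7.33 against 7.29, 6.29 and 6.74 without overlap, a smaller difference of 0.70 (SE 0.31), and was not called (adjusted p = 0.0916). The pan-leukocyte gene Ptprc had a difference of 1.12 (adjusted p = 0.0902). Summed counts of 6 T cell markers were 934 to 1727 in SPF control and 263 to 719 in GF control mice. Those of 5 CD8 and intraepithelial markers were 2894 to 3509 against 357 to 624. Gzma and Gzmb, described above, are among these 5, and most of this sum came from Gzma. Cd8b1, also among them, had a difference of 1.26 and was not called. The T cell sum was lowest in mouse 8 (934) among the SPF control mice and highest in mouse 37 (719) among the GF control mice. The B cell genes below keep that order. Without mouse 37 the receptor list had 10 calls instead of 7. The part of cell numbers, or of follicles in the piece of ileum, in these rises was not tested.

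Of 6 cytotoxic effectors 4 were higher and 0 lower (66.7% called, beside 42.1% of all genes). With centring and with quantile normalization 2 were higher. Fasl, a death ligand, had 4.88, 5.14 and 5.26 against 4.11, 3.27 and 4.32, a difference of 1.19 (adjusted p = 0.00364, and 0.0551 with centring and 0.146 after quantile normalization). Prf1, the pore-forming perforin, was called at 1.29 (adjusted p = 0.0198), but its adjusted p was 0.0517 to 0.0798 without mouse 2, 38 or 39, and 0.0516 with centring and 0.16 after quantile normalization. Ctsc, which activates granzymes and is made by many cells, had a difference of -0.06 ± 0.16 (adjusted p = 0.78). In T cell proximal signalling, 4 of 16 genes were higher and 4 lower (50% called, beside 42.1% of all genes). The list median of 0.32 was -0.12 with centring on the median. Zap70, the kinase bound to the receptor's zeta chain, had 6.29, 6.41 and 5.88 against 4.98, 4.18 and 4.80, a difference of 1.54 (adjusted p = 0.00355). Those called lower were widely expressed signalling genes, among them Map4k4 at -0.86 (adjusted p = 0.000295), Prkcd at -0.85 (adjusted p = 0.0017) and Nfatc3 at -0.66 (adjusted p = 0.00355). Without mouse 2, or without mouse 38, the number called in this list was 5 instead of 8.

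Of 24 checkpoint and co-stimulatory receptors 11 were higher, 1 was lower and 12 were not called (50% called, beside 42.1% of all genes). The list median was 1.01. Without mouse 38 there were 7 calls, and the split was 8 higher and 1 lower with centring and 8 higher and 1 lower after quantile normalization. Tigit, an inhibitory receptor of T and NK cells, had levels of 5.72, 5.77 and 5.46 against 3.48, 3.59 and 3.17, a difference of 2.24 (SE 0.19, adjusted p = 4.55e-05). Ctla4, an inhibitory receptor of activated and regulatory T cells, had 6.36, 6.55 and 6.02 against 4.67, 3.85 and 4.70, a difference of 1.90 (adjusted p = 0.00335). Cd274 encodes PD-L1, the ligand of PD-1, and its levels were 7.46, 7.67 and 7.25 against 6.02, 5.91 and 5.97, a difference of 1.49 (SE 0.18, adjusted p = 0.000313). Its receptor gene Pdcd1 was not called (1.49, adjusted p = 0.162). Slamf7, a receptor of NK and plasma cells, differed by 1.59 (adjusted p = 0.00578) and Cd226, the activating counterpart of TIGIT, by 1.38 (adjusted p = 0.0107). Nt5e, the ectoenzyme CD73 that makes adenosine, was the one lower member, with 7.97, 7.83 and 7.85 against 8.87, 9.38 and 9.40 and a difference of -1.33 (adjusted p = 0.0108).

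Transcription factors of T helper, regulatory and innate lymphoid cells were mixed. Of 20, 5 were higher and 2 lower (35% called, beside 42.1% of all genes). The median of 0.23 changed sign with centring on the median (-0.21) and quantile normalization (-0.19). The calls turned over too, to 2 higher and 5 lower with centring and 2 higher and 4 lower after quantile normalization. Nfil3, a circadian factor of innate lymphocytes and epithelium, had levels of 9.68, 9.28 and 9.71 against 7.84, 7.74 and 7.41, a difference of 1.89 (SE 0.19, adjusted p = 0.000125). Runx3, a factor of CD8 and intraepithelial cells, had 7.47, 7.40 and 7.14 against 6.27, 5.69 and 5.67, a difference of 1.46 (adjusted p = 0.00445). Zbtb7b, known for CD4 commitment, ran lower at -0.77 (adjusted p = 0.00513). Of the 3 lineage factors of effector and regulatory T cells given here, 1 was called. Tbx21, of type 1 cells, was called at 0.48 (adjusted p = 0.0198), with an adjusted p of 0.0523 to 0.0616 without mouse 7, 8 or 37, and 0.899 with centring and 0.246 after quantile normalization. Gata3, of type 2 cells, had -0.26 ± 0.14 (adjusted p = 0.144), and Foxp3, of regulatory T cells, had 0.12 ± 0.38 (adjusted p = 0.799) at 2.54 to 4.07 log2 units in the 6 mice.

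In the Th17 and ILC3 list, the cytokines Il17a and Il22 rose while Il25 and 3 receptors and factors fell. Of 22 genes, 5 were higher and 4 lower (40.9% called, beside 42.1% of all genes). The median of 0.10 changed sign under centring (-0.34) and quantile normalization (-0.11). Il17a had levels of 4.21, 4.32 and 4.44 against 3.35, 2.59 and 2.0, 22 to 26 counts in SPF and 4 to 10 in GF control mice, a difference of 1.68 (SE 0.36, adjusted p = 0.00531). Il22 had 9 to 13 counts in SPF control mice and 0 to 3 in GF control mice, a difference of 2.34 with a count of 0 set to 0 (adjusted p = 0.00186). Irf4, a factor of Th17 and plasma cells, had 8.40, 8.45 and 8.43 against 6.65, 5.55 and 5.75, a difference of 2.44 (SE 0.25, adjusted p = 0.00016), and Nfkbiz, an inducible NF-kB cofactor, differed by 1.03 (adjusted p = 0.000932), a call that centring on the median removed (0.118). Batf, a factor needed for Th17 cells, was called higher at 1.48 (adjusted p = 0.0236), with an adjusted p of 0.0711 to 0.0898 without mouse 2, 7, 38 or 39. Maf, which drives interleukin 10, was lower, with 9.59, 9.84 and 9.99 against 10.87, 11.25 and 10.83 and a difference of -1.18 (adjusted p = 0.000365). Ahr, a sensor of dietary and microbial ligands, was called lower at -0.48 (adjusted p = 0.0174), with an adjusted p of 0.0517 to 0.0699 without mouse 7, 38 or 39.

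B cell genes separated the mice and not the groups. Of 12 B cell receptor and identity genes 1 was called (8.33%, beside 42.1% of all genes), while the list median was 1.21. The levels varied between mice of a group, with an SD of the list median between mice of a group of 1.48, against 0.487 for the T cell receptor list. Ms4a1, which encodes CD20, had 10.89, 11.17 and 6.39 in SPF and 9.94, 7.09 and 5.08 in GF control mice (difference 2.11 ± 1.89, adjusted p = 0.377). Pax5, the factor of B cell identity, had 8.48, 8.56 and 3.73 against 8.07, 5.18 and 3.80. High levels were thus found in SPF control mice 2 and 7 and GF control mouse 37, and low levels in SPF control mouse 8 and GF control mice 38 and 39. The follicle genes Cxcr5 and Cxcl13, a receptor and ligand that guide B cells, kept that order, with Cxcr5 at 7.53, 7.83 and 3.06 against 6.51, 4.27 and 2.32 and Cxcl13 at 10.20, 10.28 and 7.17 against 8.96, 7.52 and 7.26. Summed counts of 6 B cell markers were 1151 to 6289 in SPF control and 821 to 3330 in GF control mice, and those of 5 germinal centre and follicle markers 258 to 1947 against 315 to 910. The number of follicles in each piece of ileum was not given, and its part in these values was not tested. The single call, Blnk, an adaptor of the B cell receptor, was 0.42 (adjusted p = 0.0397) and turned to -0.023 with centring on the median, and its adjusted p was 0.0697 to 0.133 without mouse 2, 7, 37, 38 or 39.

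Of 10 genes of B cell maturation and plasma cells 2 were higher and 0 lower (20% called, beside 42.1% of all genes). The summed counts of 4 plasma cell markers overlapped, 5927 to 8939 in SPF and 6193 to 6909 in GF control mice. Prdm1 and Xbp1 made up most of this sum. The other 2 markers, Irf4 and Tnfrsf17, were called higher, and the median difference of the 4 was 1.42. Tnfrsf17, the larger of the 2 rises in the list, was as high in mouse 8 as in mice 2 and 7. Tnfsf13b encodes BAFF, a survival factor of B lineage cells, and had 7.22, 7.11 and 7.41 against 6.61, 6.57 and 6.44, a difference of 0.71 (SE 0.13, adjusted p = 0.00297), which was not called under either scaling (0.399 with centring and 0.51 after quantile normalization). Prdm1 and Xbp1, plasma cell factors that the epithelium also expresses, were not called (adjusted p = 0.138 and 0.984). Pigr, the epithelial receptor that carries IgA into the lumen, had 15.82, 15.58 and 16.04 against 14.93, 15.08 and 15.12, a difference of 0.77 (SE 0.24, adjusted p = 0.0257). Its groups did not overlap, but the adjusted p was 0.0528 to 0.0711 without mouse 2, 8, 37, 38 or 39, and 0.471 with centring and 0.251 after quantile normalization. Among the 9 Fc and IgA receptors, Fcgr2b, the inhibitory IgG receptor, was also higher, with 9.74, 9.77 and 9.54 against 8.94, 8.58 and 8.91 and a difference of 0.87 (adjusted p = 0.00426, and 0.0586 with centring). Of the 9 genes in this list 2 were called (22.2%, beside 42.1% of all genes). Without mouse 2, 8, 37, 38 or 39 this list had 1 call instead of 2, and its median of 0.21 was -0.23 with centring on the median.

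Chemokines were called in both directions, 8 of 27 higher and 5 lower (48.1% called, beside 42.1% of all genes). Of the 13 calls, 12 held in every leave-out fit. The list median was 0.22 and turned to -0.23 with centring on the median. Genes of the CXCR3 ligand group split at the RNA level. Cxcl9 had levels of 8.67, 8.43 and 9.10 against 7.03, 6.73 and 7.28, a difference of 1.72 (adjusted p = 0.00117), and Cxcl10 had 6.71, 6.76 and 6.97 against 5.38, 5.36 and 5.88, a difference of 1.27 (SE 0.17, adjusted p = 0.000433, and 0.0806 after quantile normalization). Cxcl11, named among the falls, lay 4.07-fold lower in SPF control mice. Epithelial chemokines also ran in opposite directions. Ccl20, which draws CCR6 cells to follicle epithelium, had 8.91, 9.18 and 8.13 against 7.11, 6.20 and 6.17, a difference of 2.25 (adjusted p = 0.00454). Ccl25, which draws CCR9 cells to the small intestine, had 13.32, 13.40 and 13.64 against 14.42, 14.68 and 14.51, a difference of -1.08 (SE 0.14, adjusted p = 0.000336). Ccl11, the eosinophil attractant eotaxin, fell by 0.84 (adjusted p = 0.00739), and Ccl22, a dendritic cell chemokine, rose by 1.60 (adjusted p = 0.00527).

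Of 20 chemokine receptors 7 were higher and 1 lower (40% called, beside 42.1% of all genes), with a median of 0.82. The split was 2 higher and 1 lower with centring and also after quantile normalization. Ccr9, the gut-homing receptor of CCL25, had levels of 8.24, 8.21 and 8.59 against 7.31, 6.44 and 6.70, a difference of 1.53 (SE 0.20, adjusted p = 0.000434), opposite in sign to its ligand's. Cxcr6, a receptor of resident T cells and innate lymphocytes, had 7.32, 7.57 and 7.85 against 6.76, 6.10 and 6.49, a difference of 1.13 (adjusted p = 0.00244). Ccrl1, a scavenger of CCL25 and related chemokines, ran lower at -1.0 (adjusted p = 0.012). Calls on the remaining 5 receptors, of which Cxcr3, the receptor of CXCL9 and CXCL10, was 0.80 (adjusted p = 0.0446), did not hold in every leave-out fit, and the list had 4 calls without mouse 2, 4 without mouse 8 and 3 without mouse 38. For Cxcr3 the adjusted p was 0.0513 to 0.161 without mouse 2, 7, 8, 38 or 39, and 0.318 with centring and 0.591 after quantile normalization.

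Few interleukins passed. Of 25 interleukins and haematopoietic cytokines 2 were higher and 2 lower (16% called, beside 42.1% of all genes). Their median was 0.04 (-0.40 with centring and -0.19 after quantile normalization). Il15, which maintains CD8 intraepithelial and NK cells, was lower, with 6.93, 6.95 and 7.19 against 8.49, 8.58 and 8.40 and a difference of -1.47 (SE 0.13, adjusted p = 6.74e-05). Lif, a cytokine of the IL-6 family, had 5.21, 5.81 and 5.82 against 6.72, 6.64 and 6.60, a difference of -1.04 (adjusted p = 0.00165). Il18, an inflammasome product of the epithelium, was higher, with 9.93, 9.06 and 10.63 against 8.59, 8.69 and 8.44 and a difference of 1.30 (adjusted p = 0.0153), though not with centring on the median (0.145). Il1b differed by 0.86 (adjusted p = 0.0212), with an adjusted p of 0.0595 to 0.0644 without mouse 2 or 37, and 0.334 with centring and 0.706 after quantile normalization. Il10, the main regulatory cytokine, had 3.55, 3.49 and 3.06 against 3.19, 3.08 and 3.32, 7 to 14 counts a mouse, and a difference of 0.17 ± 0.38 (adjusted p = 0.739).

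Cytokine receptors were called in both directions. Of 27, 7 were higher and 6 lower (48.1% called, beside 42.1% of all genes). The median of 0.32 changed sign with centring (-0.12) and quantile normalization (-0.058). With those scalings the calls were 1 higher and 8 lower with centring and 3 higher and 7 lower after quantile normalization. Lymphocyte receptor chains were among the higher ones, with Il12rb1 at 0.96 (adjusted p = 0.00659) and Il2rb, the beta chain for IL-2 and IL-15, at 0.92 (adjusted p = 0.0162). The adjusted p of Il12rb1 was 0.171 with centring and 0.297 after quantile normalization. For Il2rb it was 0.0509 to 0.0667 without mouse 2, 38 or 39, and 0.086 with centring, and the list had 8 calls without mouse 38. Kit, the stem cell factor receptor of mast cells and pacemaker cells, had 7.82, 7.93 and 8.07 against 8.58, 8.78 and 8.87, a difference of -0.80 (SE 0.15, adjusted p = 0.00289). Il1rl1 encodes ST2, the IL-33 receptor of mast cells and type 2 lymphocytes, and had 7.02, 7.45 and 8.04 against 8.52, 8.99 and 9.02, a difference of -1.34 (adjusted p = 0.00563). Il10rb, the shared chain for IL-10 and IL-22, fell by 0.72 (adjusted p = 0.00281), and Il6ra differed by -0.78 (adjusted p = 0.0031). The 2 mast cell markers measured, Kit and Fcer1a, summed to 234 to 287 counts in SPF and 390 to 470 in GF control mice, nearly all from Kit.

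More microbial sensing genes were called lower than higher. Of 18 Toll-like receptors and adaptors 2 were higher and 6 lower (44.4% called, beside 42.1% of all genes), with a median of -0.16. All 5 called among the 8 adaptors and kinases were lower. Tlr1, a partner of TLR2 for bacterial lipopeptides, was higher, with 8.97, 8.98 and 8.84 against 8.20, 7.55 and 7.76 and a difference of 1.09 (SE 0.21, adjusted p = 0.00355). Tlr2 was called at 0.78 (adjusted p = 0.0322) with an adjusted p of 0.0824 to 0.0923 without mouse 2, 8, 37 or 38, and 0.412 with centring and 0.764 after quantile normalization. Tlr4, the lipopolysaccharide receptor, had 7.13, 7.26 and 7.39 against 6.80, 6.98 and 7.23 and was not called (adjusted p = 0.209). Tlr5, the flagellin receptor, was lower, with 4.55, 5.07 and 4.69 against 5.61, 5.66 and 5.80 and a difference of -0.92 (SE 0.18, adjusted p = 0.00345). The inhibitors Sigirr and Tollip were lower too, Sigirr with 8.38, 8.49 and 8.76 against 9.40, 9.68 and 9.48 (difference -0.98, adjusted p = 0.000737) and Tollip at -0.82 (adjusted p = 0.00778). Myd88, the adaptor shared by most of these receptors, fell by 0.52 (adjusted p = 0.0107), and the kinase Irak2 differed by -0.70 (adjusted p = 0.00203).

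Of the 4 NOD, inflammasome and autophagy genes, Nod2, the muramyl dipeptide sensor, and Card9, an adaptor for fungal recognition, were called higher (0.95, adjusted p = 0.0178 and 0.88, adjusted p = 0.0152) and Atg16l1, of autophagy, lower (-0.48, adjusted p = 0.0172). The share called was 75%, beside 42.1% of all genes. None of these 3 calls held in every leave-out fit, and those on Nod2 and Card9 were lost under both scalings (0.27 with centring and 0.522 after quantile normalization, and 0.313 with centring and 0.142 after quantile normalization). The adjusted p was 0.054 to 0.0578 without mouse 7 or 39 for Nod2, 0.0509 to 0.0559 without mouse 38 or 39 for Card9 and 0.0574 to 0.0636 without mouse 2, 7, 38 or 39 for Atg16l1, and the list median of 0.24 was -0.20 with centring on the median.

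In the core signalling families below more genes were called lower than higher. In the NF-kB pathway 0 of 12 genes were higher and 7 lower (58.3% called, beside 42.1% of all genes), with a median of -0.55. Nfkb1, the p105 and p50 subunit, had levels of 10.31, 10.37 and 10.34 against 10.86, 11.09 and 10.91, a difference of -0.61 (SE 0.10, adjusted p = 0.0017). Relb, a subunit of the alternative pathway, fell by 0.74 (adjusted p = 0.00289), and Chuk, the kinase IKK-alpha, differed by -0.84 (adjusted p = 0.00363). The inducible inhibitors Nfkbia and Tnfaip3, both NF-kB targets, had differences above 0 that were not called (0.26, adjusted p = 0.209 and 0.28, adjusted p = 0.193). Calls on Rela and Ikbkb did not hold without mouse 38, where the adjusted p was 0.0529 for Rela and 0.0523 for Ikbkb.

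The TNF superfamily and its adaptors gave 0 higher and 9 lower of 26 (34.6% called, beside 42.1% of all genes). All 9 calls held in every leave-out fit. Their median was 0.17, and it was -0.27 with centring and -0.15 after quantile normalization. By role, 6 of the 8 adaptors, 1 of the 10 ligands and 2 of the 8 receptors were lower. Traf4 had levels of 7.16, 7.14 and 7.18 against 7.99, 8.19 and 8.15, a difference of -0.95 (SE 0.15, adjusted p = 0.000932), and Fadd, the adaptor of death receptors, fell by 0.80 (adjusted p = 0.00387). Tnf itself had 5.03, 5.54 and 4.82 against 4.78, 4.59 and 4.17 and was not called (0.62 ± 0.59, adjusted p = 0.407).

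TGF-beta signalling, MAP kinase and JAK-STAT genes, and apoptosis regulators had medians of -0.45 or lower. Of 9 TGF-beta genes 6 were lower and 0 higher (66.7% called, beside 42.1% of all genes), with a median of -0.54. Smad5, a mediator for bone morphogenetic proteins, had 9.99, 9.85 and 10.18 against 10.88, 11.08 and 10.89, a difference of -0.94 (SE 0.14, adjusted p = 0.000791). Smad3, the mediator for TGF-beta, fell by 0.93 (adjusted p = 0.00155) and Ski, a repressor of Smads, differed by -0.80 (adjusted p = 0.00103). Of 22 MAP kinase, JAK-STAT and other signalling genes 11 were lower and 3 higher (63.6% called, against the same 42.1%), with a median of -0.45. Jak2 had 11.00, 11.17 and 11.46 against 12.03, 12.29 and 12.03, a difference of -0.90 (adjusted p = 0.00184), while Jak3, the kinase of the common gamma chain, was higher with 6.83, 6.79 and 6.46 against 5.80, 5.08 and 5.52 and a difference of 1.23 (adjusted p = 0.0042). Of 10 caspases and apoptosis regulators 6 were lower and 0 higher (60% called, against the same 42.1%), with a median of -0.65. Bcl2, which protects cells from apoptosis, had 6.82, 6.69 and 6.35 against 7.84, 7.97 and 7.61, a difference of -1.19 (SE 0.17, adjusted p = 0.000685), and Bax, which promotes it, fell by 0.71 (adjusted p = 0.00357).

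The complement list held 3 higher and 4 lower genes of 29 (24.1% called, beside 42.1% of all genes), with a median of -0.05. The split was 2 higher and 8 lower with centring and 3 higher and 4 lower after quantile normalization. Cfb, factor B of the alternative pathway, was lower, with 9.43, 9.42 and 9.77 against 10.62, 10.83 and 10.57 and a difference of -1.13 (SE 0.14, adjusted p = 0.00032), while C2, its counterpart in the classical pathway, was higher by 0.72 (SE 0.18, adjusted p = 0.0101, and 0.447 with centring on the median). C3 was not called (0.78, adjusted p = 0.113). Cfd, a product of fat cells, had 2.07, 8.78 and 10.46 against 7.74, 8.95 and 11.44, a wide spread within both groups, and was not called (adjusted p = 0.482). The list had 4 calls without mouse 2, 4 without mouse 7 and 3 without mouse 38.

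Few natural killer and lectin receptors were called. Of 20 natural killer receptors 3 were higher and 1 lower (20% called, beside 42.1% of all genes). The split was 1 higher and 3 lower under both scalings. The list median was 0.32 (-0.12 with centring and -0.088 after quantile normalization). Klrd1 encodes CD94, also present on CD8 intraepithelial cells, and had 7.44, 7.60 and 7.64 against 6.67, 6.08 and 5.95, a difference of 1.33 (SE 0.24, adjusted p = 0.00251). Klrk1, which encodes NKG2D, was not called (0.52, adjusted p = 0.0533), and Ly49 genes of the Klra family had counts too low and sequences too similar to be told apart with confidence. Of 12 C-type lectin and scavenger receptors 1 was higher and 1 lower (16.7% called, beside 42.1% of all genes). Their median of 0.33 changed sign with centring (-0.11) and quantile normalization (-0.13). Lilrb4, an inhibitory receptor of myeloid and plasma cells, had 7.51, 7.53 and 7.64 against 6.86, 6.22 and 6.57, a difference of 1.01 (adjusted p = 0.000932, and 0.0558 with centring on the median). Cd163, a scavenger receptor of resident macrophages, was lower at -1.02 (adjusted p = 0.0229), with an adjusted p of 0.0803 to 0.0892 without mouse 2, 7 or 39, and without any one of these mice the list had 1 call. Summed counts of 6 macrophage and dendritic cell markers overlapped, 1070 to 1347 in SPF and 895 to 1266 in GF control mice.

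Of 35 adhesion and endothelial genes 5 were higher and 9 lower (40% called, beside 42.1% of all genes), with a median of -0.30. The split was 3 higher and 14 lower with centring and 4 higher and 8 lower after quantile normalization. Of the 9 integrins 4 were higher, 2 lower and 3 not called. Itgal, the alpha chain of LFA-1, had 8.90, 9.0 and 8.22 against 7.51, 6.20 and 6.68, a difference of 1.91 (adjusted p = 0.00677), and its partner Itgb2 differed by 1.03 (adjusted p = 0.00816). Itgam, the alpha chain of Mac-1, was called at 1.26 (adjusted p = 0.00629), though not with centring (0.116). Itgax, the alpha chain of CD11c of dendritic cells, was not called (0.22, adjusted p = 0.312). Itga2b, the platelet integrin, was lower, with 2.92, 3.93 and 3.54 against 4.72, 4.59 and 4.70 and a difference of -1.21 (adjusted p = 0.00563). Cd9, a tetraspanin of the epithelium, fell by 0.92 (adjusted p = 0.00355), and Cdh5, the cadherin of endothelium, differed by -0.77 (adjusted p = 0.00589). Pecam1, another endothelial gene, was not called (-0.19, adjusted p = 0.233).

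Of 14 ectoenzyme and metabolic genes 2 were higher and 5 lower (50% called, beside 42.1% of all genes), with a median of -0.24. The higher ones were Ptafr, the receptor of platelet-activating factor, at 0.93 (adjusted p = 0.0107), and Cybb, a subunit of the phagocyte oxidase, at 0.83 (adjusted p = 0.0322). With centring neither was called (adjusted p = 0.117 and 0.137), and the adjusted p of Cybb was 0.0666 to 0.119 without mouse 2, 7, 38 or 39. Abcb1a, Fkbp5 and Mme, described above, were among the 5 lower genes. Dpp4, a brush border peptidase, had 12.76, 12.94 and 13.21 against 14.21, 14.41 and 13.98, a difference of -1.23 (SE 0.16, adjusted p = 0.000344), and Tfrc, the transferrin receptor, had 12.19, 12.04 and 12.64 against 13.41, 13.96 and 13.85, a difference of -1.45 (SE 0.30, adjusted p = 0.00398). Summed counts of the 7 ileal epithelial markers overlapped between the groups, 149921 to 181392 in SPF and 166641 to 198277 in GF control mice. Itln1 and Pigr made up most of this sum in each SPF control mouse. Of these 7 genes 4 were called lower and 1 higher. Of the 50 genes in no family 22 were lower and 1 higher (46% called, beside 42.1% of all genes). The count called was 14 without mouse 38 instead of 23. Those named here were chosen after their values were seen. Btnl1, a butyrophilin-like molecule of the gut epithelium that acts on gamma-delta intraepithelial cells, had 11.60, 11.68 and 12.13 against 12.82, 12.91 and 12.57, a difference of -0.97 (SE 0.17, adjusted p = 0.00188). Phlpp2, a phosphatase of AKT, had 10.05, 10.04 and 10.39 against 11.35, 11.57 and 11.20, a difference of -1.21 (adjusted p = 0.000295). Gpr41, the short-chain fatty acid receptor now called FFAR3, had few counts and was called at -0.77 (adjusted p = 0.0488), with an adjusted p of 0.0501 to 0.165 without mouse 2, 8, 37, 38 or 39.

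In the mice exposed to tylosin early in life the same contrast was much smaller. SPF PAT minus GF PAT called 8 of 556 genes (1.44%), of which 7 were among the 234 called without tylosin, and the 2 contrasts share no mice. SPF PAT mouse 21 stood apart from the other SPF PAT mice, with correlations over genes of 0.933 and 0.936 against 0.986 between them, and with summed B cell marker counts of 5398 against 785 and 790. Without mouse 21 the contrast called 11 genes, 9 of them among the 234, and without each other PAT mouse in turn it called 1 to 4 genes. These fits were added after seeing the data. Nfil3 was called in each of these 6 fits and none of the other 7 genes was. The test of the difference between the contrasts called 95 genes (17.1%), 92 of them among the 234. Of the 95, 40 had the more positive difference without tylosin and 55 the more negative, against 19 and 60 with each mouse centred on its median. Leaving out 1 control mouse gave 45 genes without mouse 2, 51 without mouse 7, 47 without mouse 38, 58 without mouse 39 and 140 without mouse 8, and it was 126 without mouse 37. The count was 217 without PAT mouse 21 and 35 to 95 without each other PAT mouse. Over the 234 genes the median absolute difference was 0.911 without and 0.135 with tylosin (0.158 to 0.179 without 1 PAT mouse), 231 had the smaller absolute difference with tylosin, and 156 kept their sign. Since the 234 genes were called for a large difference without tylosin, these counts lean towards a smaller difference elsewhere.

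H2-Aa differed by 2.05 without and by 0.00 with tylosin, and the difference between them was 2.05 (adjusted p = 0.012). For Cd8a the values were 2.12 and -0.10 (adjusted p of their difference 0.0167), and for Fkbp5 they were -2.40 and 0.02 (adjusted p 0.000372). Saa1_2 kept a part of its rise, with 6.38 without and 2.75 with tylosin (adjusted p = 0.0352 for the latter and 0.015 for the difference). Nfil3 had nearly the same rise in both, 1.89 and 1.80 (adjusted p = 0.00155 with tylosin), and the test of their difference gave an adjusted p of 0.809. Tnfrsf17 was called in both, at 2.65 and 1.67, as were Pla2g2a at 0.65 and 1.17, Abcb1a at -2.82 and -1.11, and Tnfsf15 at -1.57 and -0.98. Phlpp2 was the remaining gene called in both, at -1.21 and -0.89.

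**Figure D5:**
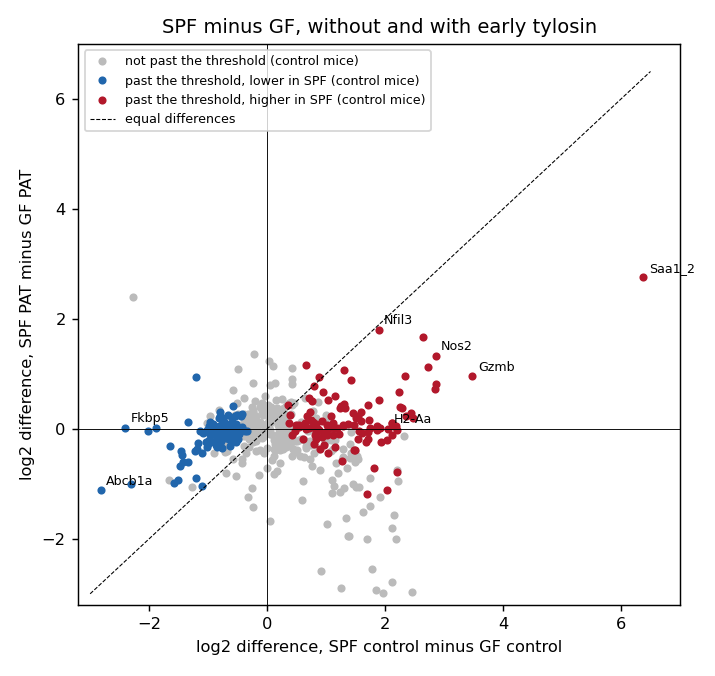
Log2 difference of SPF PAT minus GF PAT (vertical axis) against that of SPF control minus GF control (horizontal axis), 1 point per gene, coloured by the call in control mice, with a dashed line of equal differences. Most coloured points lie near 0 on the vertical axis, while Nfil3 lies near the dashed line and Saa1_2 at 6.38 across and 2.75 up.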

How the data were processed

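Terminal ileum RNA of 12 mice, 3 in each of 4 groups taken from the labels, was read by the authors on a NanoString nCounter mouse immunology panel of 584 rows. The deposited values are log2 of counts that the authors normalized with DESeq2, for 556 genes. The other 28 rows (14 reference genes and 14 control probes) had no value. Whole counts were recovered from the deposited log2 values within 0.01 of a whole number, and a count of 0 was listed as 0. Scaling by size factors over all genes sets the typical gene level, so a shift of most genes would be hidden. Counts of different probes are not comparable between genes.

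The linear models of limma 3.58.1 under R 4.3.3, moderated by eBayes, were fitted with 1 mean per group over all 12 mice, with Benjamini-Hochberg adjustment over 556 genes and a threshold of 0.05. The difference between the control and PAT contrasts was tested in the same fit. Scripts were tested on simulated data. The genes named were taken from the 8 largest rises and falls without overlap, up to 3 per list and direction by smallest p, and a fixed set of lineage genes. Further genes in the text were added with their values known, and some genes that the rule names are not reported here. The members and gene lists were chosen with earlier results of these data known. Alternatives were median centring, quantile normalization, scaling to total counts, voom on recovered counts, the methods' analysis of variance with Tukey's test, variance models, only the 2 groups, a minimum mean count of 20, a pseudocount of 1, a minimum difference of 1 and leaving out each mouse (the PAT mice as an addition). Promoters were taken from RefSeq on GRCm38.p6. Of the panel's symbols 537 were current in RefSeq, 16 older and 3 unmatched. Figures were drawn with matplotlib 3.10.9.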

Additional observations from a re-analysis of the deposited data

Results flagged for a closer look

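For 65 of the 167 genes named in the report, the difference of SPF minus GF in control mice differed from that in PAT mice. This was limma's test of that difference with Benjamini-Hochberg adjustment over all 556 genes, which called 95 of the 556 (17.1%). Many of the named genes were chosen for their control difference, which is a part of the tested value, so the count leans towards a difference. The values below are the control difference minus the PAT difference in log2 units. They are given without an explanation, and tylosin exposure and its timing were shared by all PAT mice.

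Among T cell, cytotoxic and receptor genes the value was 2.52 for Gzmb, 2.23 for Cd247, 2.22 for Cd8a, 2.11 for Gzma, 1.88 for Cd274, 1.73 for Zap70, 1.56 for Tigit, 1.56 for Cd7 and 1.17 for Fasl. Among antigen presentation and interferon genes it was 2.23 for Cd74, 2.14 for H2-DMa, 2.05 for H2-Aa, 2.02 for H2-Ab1, 1.82 for Tap1, 1.60 for H2-Eb1, 1.32 for Psmb9, 0.93 for Irgm1 and 0.55 for Irf8. Among chemokines and their receptors it was 2.27 for Ccl8, 2.05 for Ccl5, 1.85 for Cxcl10, 1.68 for Ccl22, 1.29 for Ccr9, 1.28 for Cxcl9 and 1.12 for Cxcr6. For the other genes with a more positive difference in control mice it was 3.62 for Saa1_2, 2.87 for S100a8, 2.15 for Irf4, 2.13 for S100a9, 1.92 for Il17a, 1.91 for Saa3, 1.48 for Socs1, 1.26 for Il12rb1, 0.95 for Lilrb4 and 0.89 for Fcgr2b.

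A more negative difference in control mice was found for signalling genes, with -1.03 for Sigirr, -0.98 for Tlr5, -0.94 for Relb, -0.90 for Smad5, -0.88 for Prkcd, -0.86 for Ski, -0.83 for Smad3, -0.82 for Bcl2, -0.73 for Traf4, -0.61 for Myd88, -0.57 for Map4k4 and -0.55 for Nfkb1. For the rest it was -2.42 for Fkbp5, -2.14 for Itga2b, -1.99 for Cxcl11, -1.70 for Abcb1a, -1.31 for Mme, -1.09 for Cfb, -1.07 for Il15, -1.03 for Kit, -1.01 for Ccl25, -1.0 for Cd9, -0.99 for Ifngr1, -0.92 for Maf, -0.90 for Btnl1, -0.89 for Ifngr2, -0.85 for Il6ra, -0.82 for Dpp4, -0.81 for Zbtb7b and -0.73 for Il10rb. No group held 4 or more mice, so a single mouse far from the others was not tested for.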

How the results depend on the processing

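No paired analysis was possible because the mouse numbers only name the mice and no number is shared between groups. For SPF control minus GF control, 234 genes were called, and the scaling, variance and filter alternatives gave 199 to 252. The exceptions were Tukey's HSD test after an analysis of variance over the 4 groups, as the methods describe, which called 142 genes after Benjamini-Hochberg and 49 after Benjamini-Yekutieli adjustment, all among the 234. A minimum difference of 1 log2 unit left 99 genes. Leaving out 1 control mouse gave 169 to 246 genes. For the difference between the control and PAT contrasts, 95 genes were called, a minimum difference of 1 left 50, leaving out 1 control mouse gave 45 to 140, leaving out 1 PAT mouse, an alternative chosen after seeing the data, gave 35 to 217, and the others gave 69 to 134. The cause of these changes in count was not tested.

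Of the 167 genes named in the report, 132 were called, and 37 of these kept their call under every alternative run, or 86 when the Benjamini-Yekutieli adjustment is set aside. Calls were lost for 27 named genes with median centring, 17 with quantile normalization, 31 and 91 with Tukey's test after the Benjamini-Hochberg and Benjamini-Yekutieli adjustments, 10 with only the 2 groups compared and 6 to 16 without 1 control mouse. The 10 lost with only the 2 groups compared were Ahr, Atg16l1, Blnk, Cd163, Cxcl15, Cxcr3, Defb1, Gpr41, Ikbkb and Tbx21. The difference of Blnk turned to -0.023 with median centring, and that of Xbp1, which was not called, to 0.45 after quantile normalization, where it was called.

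List medians that changed sign with median centring were those of T cell proximal signalling (-0.12), natural killer receptors (-0.12), Th17 and ILC3 (-0.34), T helper factors (-0.21), Fc receptors (-0.23), NOD receptors (-0.20), lectins (-0.11), chemokines (-0.23), interleukins (-0.40), cytokine receptors (-0.12), the TNF superfamily (-0.27) and all genes (-0.36). After quantile normalization the median was -0.088 for natural killer receptors, -0.11 for Th17 and ILC3, -0.19 for T helper factors, -0.13 for lectins, -0.19 for interleukins, -0.058 for cytokine receptors, -0.15 for the TNF superfamily and -0.14 for all genes. With genes under a mean normalized count of 20 left out it was -0.032 for Th17 and ILC3 and -0.053 for interleukins. Without 1 mouse the Th17 and ILC3 median ran from -0.0011 to 0.12 and the interleukin median from -0.0096 to 0.11.

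Depth limits the 111 genes with a mean normalized count under 20, of which 19 were called. The table gives no value for reference genes or control probes, so a background of the assay was not examined, and with 3 mice a group the precision is limited.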
